A study of Sus scrofa with 21 samples.

Results

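After an infarct the surviving wall takes over the pump work of the lost muscle, is stretched and remodels its cells, vessels and matrix over the following weeks. Cardiomyocytes in this remote wall adjust calcium handling and fuel use, endothelial cells keep the capillary bed, and fibroblasts and smooth muscle cells lay down and contract the matrix. The probe sets described here are those on which remote myocardium stood apart from control myocardium in every pig. They were 145 of the 12180 probe sets that passed the low-value filter, and 24123 were deposited.

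Remote myocardium (RM) came from the non-infarcted interventricular septum of 9 female Landrace x Large White crossbred pigs in which a marginal branch (the first) of the left circumflex coronary had been tied off by double ligation to cause myocardial infarction, with 3 pigs each at 1, 4 and 6 weeks. Infarct core (IC) was taken from the centre of the left ventricular scar of the same 9 pigs. Control myocardium (CM) came from 3 pigs without ligation, called sham-operated at 0 days in the deposited description and healthy in the methods of the study. Its site in the heart was not given in the sources used here. The 3 RM stages are labelled 6, 30 and 45 days. Region, surgery with the time after it, and infarction thus cannot be told apart in a comparison of RM with CM. Each sample was hybridised to 1 Affymetrix porcine array, which gave 21 arrays, and values are log2 expression levels made by RMA, on which a difference of 1 is a doubling.

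A probe set is a group of short probes against 1 transcript. A probe set was taken as a member where it exceeded 3 in at least 10 of the 21 arrays, where the 9 RM arrays all lay above or all lay below the 3 CM arrays, and where the mean of RM and the mean of CM differed by at least 0.6. The members were thus chosen by the RM and CM values themselves, and the differences between RM and CM below are a description with no test. Of the 145 members 62 were higher and 83 were lower in RM, which is 0.509% and 0.681% of the probe sets tested. With arrays centred on ribosomal protein genes the split was 35 higher and 129 lower, and with arrays centred on their median 47 and 96. Without the size threshold, 456 probe sets (3.74%) had RM and CM arrays that did not overlap, 236 above (1.94%) and 220 below (1.81%).

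A gene symbol came from the platform annotation for 68 of the members and only from the authors' match to a human gene for 41, and 36 were unnamed. Where both sources named a probe set they differed in 10 of 39 cases, and both names are then given. The named members carried 102 different names, since CCDC15, PKIG, PDLIM5, PIK3C2A, DOCK9, PECAM1 and KIAA1551 were each hit by 2 probe sets. Among the unnamed ones the largest positive difference, 1.71, was shared by a pair of probe sets and the largest negative one was -1.78.

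The median difference of RM minus CM was 0.78 over the higher members and -0.83 over the lower ones, and 15 higher and 25 lower members differed by at least 1. Just inside the size threshold lay unnamed probe sets at -0.6014 and 0.6035 and GGA2, a clathrin adaptor of the trans-Golgi network, at 0.6046. Just outside it lay SLC38A1, a glutamine transporter, at 0.5969, EVA1B at 0.5954 and SH3KBP1, an endocytic adaptor, at -0.5946. The step between the nearest RM and CM arrays was narrow in most members, with a median of 0.16 for the higher and 0.17 for the lower ones, and it passed 0.5 in 6 and 4 of them.

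**Figure D1:**
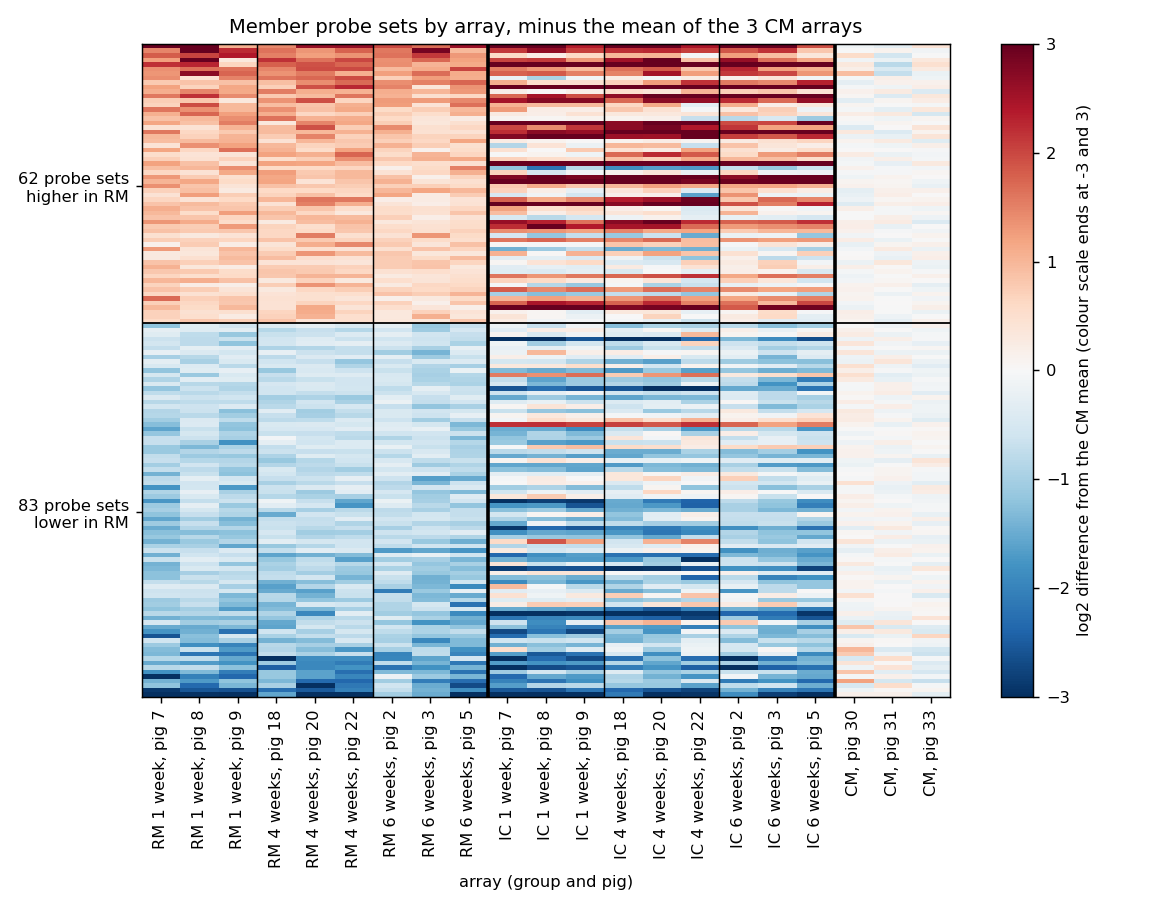
Log2 difference of each array from the mean of the 3 CM arrays for the 145 members (rows, 62 higher in RM above the line and 83 lower below it, ordered by their mean difference) in RM, IC and CM arrays (columns, labelled by group and pig). The rule fixes the single sign of each row over the 9 RM columns, while the IC columns, which the rule used only in the low-value filter, hold rows of both signs in each block.

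The same rule was applied to each of the 219 other choices of 3 of the 12 RM and CM arrays, set against the remaining 9. These choices gave a median of 14 probe sets, with quartiles of 8 and 28.5 and a range of 1 to 175. Of them 216 gave fewer than the 145 of the CM arrays and 3 gave more. The most, 175, came from pigs 8 and 9 at 1 week with pig 5 at 6 weeks, and the 3 RM arrays of 1 week gave 168 and those of 4 weeks 164, while those of 6 weeks gave 75. All 3 choices that exceeded CM were made of RM arrays only.

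**Figure D2:**
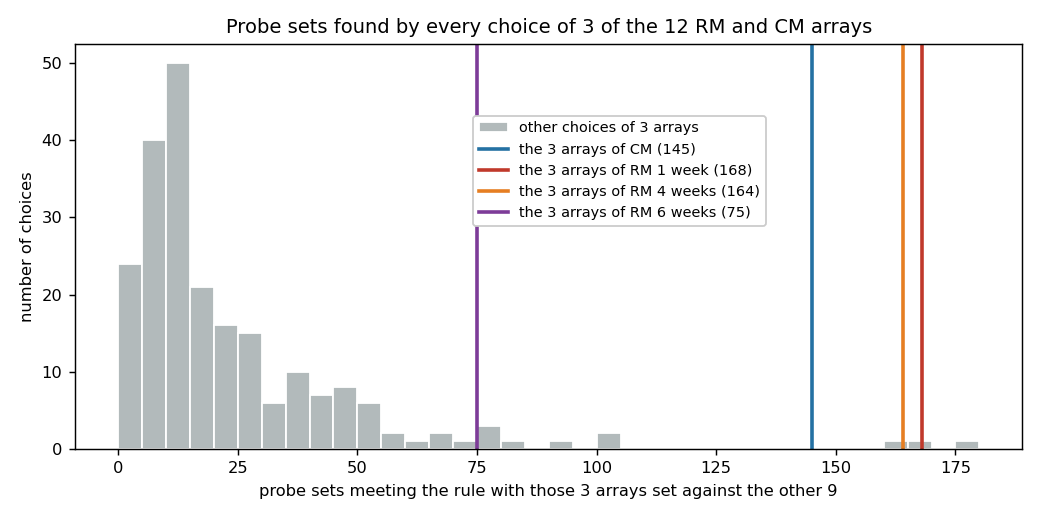
Number of choices (vertical axis) by the number of probe sets that met the rule when the 3 chosen arrays were set against the other 9 RM and CM arrays (horizontal axis, bins of 5). The bars hold the 219 choices other than CM and lie mostly below 50, and the lines mark CM at 145 and the 3 arrays of each RM stage, at 168 (1 week), 164 (4 weeks) and 75 (6 weeks).

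The 3 CM arrays carried unequal weight in the rule. The CM array of pig 33 was the one nearest to RM in 28 of the 62 higher and 40 of the 83 lower members. With 1 CM array fewer to clear, the rule gave 266 probe sets without pig 30, 234 without pig 31 and 295 without pig 33, which included 126, 132 and 134 of the 145 members. The sign of a member's mean difference could not change in these repeats, since every RM array already cleared every CM array. A member could drop out only through the size threshold. Without pig 30 the size of 5 members moved by over 1.5 times, and these were INHBB, MYC, CREB5 and 2 unnamed probe sets.

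Among the members higher in RM, genes of the cytoskeleton and of contractile filaments held several of the largest differences. KRT8, a keratin of the intermediate filaments of simple epithelia, ranged from 2.86 to 5.81 in RM (median 4.40) and from 3.73 to 6.93 in IC (median 5.03), against 1.68, 1.51 and 2.20 in CM. Its mean in RM was 2.41 above that in CM, the largest positive difference among the members, and all 3 CM values lay below the filter level of 3. ACTG2, the gamma actin of visceral smooth muscle, ranged from 2.81 to 4.70 in RM (median 3.67) and from 6.03 to 8.27 in IC (median 7.15), against 2.38, 2.32 and 2.65 in CM. Its RM mean was higher by 1.23, and the IC arrays lay above all RM arrays. A second ACTG2 probe set, with a mean of 5.15 in RM and 5.06 in CM, differed by 0.09.

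SMTNL2, a relative of the smooth muscle protein smoothelin, had RM values of 5.35 to 6.38 (median 5.73) and IC values of 4.61 to 6.05 (median 5.08), against 4.70, 4.48 and 5.11 in CM, a difference of 1.07 for RM. MTSS1, an actin-binding protein that bends membranes, lay at 3.87 to 4.83 in RM (median 4.46) and 3.56 to 5.38 in IC (median 4.33), against 2.82, 3.21 and 3.21 in CM, a difference of 1.24. The Z-disc protein PDLIM5 was higher on 2 probe sets, by 0.81 and 0.73, while the remaining PDLIM5 probe set (11.27 in RM, 11.39 in CM) differed by -0.12. Smaller differences of the same sign were found for the beta tubulins TUBB4B or TUBB2A at 0.91 and TUBB at 0.73, the microtubule-bundling TPPP3 at 0.71, the actin-severing DSTN at 0.68, the Z-disc adaptor SORBS2 at 0.63 and EPB41L3, which links membrane proteins to the cytoskeleton, at 0.63. DLC1, which switches off the small GTPase RhoA, was higher by 0.85, and its other 2 probe sets differed by 0.58 and 0.35.

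Of the list of serum response factor and cytoskeletal genes, 18 were measured and 2 of them, SMTNL2 and ABLIM3, were members, 1 in each direction. The median difference over the list was 0.20, with 13 positive and 5 negative, against 0.00 over all probe sets tested. Outside the members, ACTA2, the smooth muscle alpha actin, rose in RM in a limma fit over all 12180 probe sets (8.71 ± 0.28 in RM, n = 9, and 8.11 ± 0.21 in CM, n = 3, SD, log2 difference 0.60, Benjamini-Hochberg adjusted p = 0.0485). In that fit, which compares RM over the 3 stages with CM, 107 probe sets were called at an adjusted p under 0.05 (0.878%, with 0.378% higher and 0.501% lower), of which 46 were not members. That number rested on single arrays, since it was 2 without CM pig 31, 17 without CM pig 30 and 28 without CM pig 33, and it was 11, 18, 23, 26, 27, 17, 29 and 26 without RM pigs 20, 22, 3, 8 and 7 and IC pigs 9, 7 and 18, in that order. It was 516 with array weights.

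Markers of cell types were read beside these genes. Smooth muscle markers (3 of 4 measured) averaged 5.72 to 6.44 in RM and 7.66 to 8.73 in IC, against 5.10 to 5.84 in CM, and all 3 were higher in RM. Cardiomyocyte markers (9 of 10 measured) averaged 11.64 to 11.75 in RM, 10.28 to 11.42 in IC and 11.55 to 11.65 in CM, so both RM and CM held the markers of working muscle. Atrial markers (3 of 4 measured) ranged more widely, from 3.99 to 7.22 in RM, 3.27 to 9.53 in IC and 3.10 to 5.60 in CM. All 3 were higher in RM, with a median difference of 1.14, against 0.69 for the smooth muscle markers. None of these atrial markers was called by limma. In a sample of whole tissue, fewer cells of a type and less RNA per cell cannot be told apart, and the part of cell makeup in the differences was not tested.

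Matrix genes formed a second group of higher members. COL4A5, a chain of the type IV collagen of basement membranes, ranged from 5.05 to 7.52 in RM (median 5.70) and from 4.89 to 6.74 in IC (median 6.21), against 4.08, 4.19 and 3.97 in CM, a difference of 1.92 for RM. COL21A1, a collagen that associates with fibrils, ranged from 3.14 to 4.84 in RM (median 3.70) and from 4.37 to 6.70 in IC (median 5.79), against 2.70, 2.25 and 3.00 in CM, a difference of 1.19. THBS2, a matricellular thrombospondin, ranged from 4.77 to 5.61 in RM (median 5.27) and from 8.71 to 9.96 in IC (median 9.59), against 4.34, 4.15 and 4.68 in CM, a difference of 0.82. The IC arrays of THBS2 stood far above both other groups, whereas those of COL4A5 overlapped RM. Of the extracellular matrix list 22 genes were measured under their platform symbol, THBS2 being the member, and none of the other 21 was called by limma. An unadjusted p under 0.05 was reached by 2 of them, against 1584 of all 12035 probe sets that were not members. The list had a median difference of 0.12 with 14 genes positive and 8 negative. Fibroblast markers (5 of 7 measured) had a median difference of 0.06, with 3 positive and 2 negative.

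Several higher members act in signalling. RRAD, a small GTPase that restrains the L-type calcium channel of cardiomyocytes, ranged from 8.80 to 10.28 in RM (median 9.73), against 8.28, 8.51 and 8.21 in CM, a difference of 1.30. Its IC arrays ran from 7.39 to 8.75 (median 8.27) and overlapped CM but not RM. By stage the RRAD mean of RM exceeded that of CM by 1.12, 1.76 and 1.02 at 1, 4 and 6 weeks, while that of IC differed from CM by -0.41, 0.14 and 0.17.

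The secreted Wnt antagonist SFRP1, on a probe set that the authors matched to NAV2, a neuronal guidance gene, ranged from 4.47 to 6.11 in RM (median 5.57) and from 9.34 to 10.65 in IC (median 10.18), against 4.15, 3.01 and 4.31 in CM, a difference of 1.57. A second SFRP1 probe set differed by 1.28 with overlapping arrays. The Wnt modulators DACT3 and DACT1, which bind Dishevelled, were higher in RM by 0.80 and 0.72. PKIG, an inhibitor of protein kinase A, was higher on 2 probe sets, by 0.72 and 0.64, and AKAP1, which anchors that kinase at mitochondria, by 0.62. AKAP1 had IC values of 3.20 to 4.74 (median 3.57), mostly under the 4.55, 4.29 and 4.58 of CM, with 4.88 to 5.48 in RM (median 4.98). PTGIS, the synthase of the vasodilator prostacyclin, was higher in RM by 0.88 and had IC values of 6.73 to 8.40 (median 7.53), above all RM arrays (4.96 to 6.11) and all CM arrays (4.85, 4.11 and 4.63).

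CCDC15, a coiled-coil protein, was higher in RM on both of its probe sets, by 1.19 and 0.98. The first ranged from 5.36 to 5.90 in RM (median 5.46) and from 4.37 to 5.39 in IC (median 4.80), against 4.50, 4.63 and 3.95 in CM, and its difference from CM was 1.22, 1.22 and 1.13 at 1, 4 and 6 weeks. Of the other large differences, ARMCX4 was higher by 1.57, the ubiquitin ligase RNF144B by 1.53 and the zinc transporter SLC39A11 by 1.09. These last 3 had CM means under 3, as did 10 of the 62 higher members in all, so that their CM values lay in the range the filter treats as low. NASP, a histone chaperone, was higher by 0.85.

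Immune genes among the members lay on both sides, with IL1RAP and PELI1 lower as described below and CASP1 and IFI30 higher in RM. CASP1, the protease of the inflammasome, ranged from 3.36 to 4.66 in RM (median 3.94) and from 4.68 to 7.19 in IC (median 6.32), against 2.78, 3.34 and 3.35 in CM. IFI30, a lysosomal thiol reductase of antigen-presenting cells, ranged from 4.20 to 5.16 in RM (median 4.53) and from 5.87 to 8.17 in IC (median 6.95), against 3.85, 4.02 and 4.20 in CM. For both genes the IC arrays lay above every RM array. The lowest RM value of each was nearly level with the highest CM value.

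The interferon-induced ISG12(A) was higher in RM by 0.89 and GM2A, a lysosomal lipid-transfer protein that the authors matched to C6orf103, by 0.87. SLA-3, a class I histocompatibility gene, was lower, with 7.56 to 8.52 in RM (median 8.35) and 7.88 to 9.26 in IC (median 8.73), against 9.16, 9.18 and 8.85 in CM, a difference of -0.84. The list of interferon-induced and innate immune genes had a median of 0.00 over 16 measured genes, 8 positive and 8 negative. None of its 15 genes that were not members was called by limma. Of these 15, 5 passed at an unadjusted p under 0.05, against 1584 of all 12035 probe sets that were not members. Macrophage markers (2 of 5 measured) averaged 4.71 to 5.40 in RM, 6.16 to 7.80 in IC and 4.70 to 5.12 in CM.

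Among the members lower in RM, secreted factors and their receptors had the largest differences. STC1, the glycoprotein hormone stanniocalcin, ranged from 3.37 to 6.60 in RM (median 4.62) and from 3.04 to 5.75 in IC (median 3.82), against 7.76, 7.76 and 7.31 in CM. Its mean difference of -2.81 in RM was the largest in size of all members, and by stage it was largest at 4 weeks (-3.27) and smallest at 6 weeks (-2.16). The RM arrays of STC1 agreed closely at 1 week (4.56 to 4.65) and spread widely later, from 3.37 to 6.06 at 4 weeks and from 3.63 to 6.60 at 6 weeks.

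A probe set that the platform assigns to the BMP receptor BMPR1B, and that the authors matched to the tyrosine kinase FRK, ranged from 2.63 to 4.82 in RM (median 3.28) and from 2.75 to 4.12 in IC (median 3.17), against 5.41, 5.57 and 5.61 in CM, a difference of -2.09. INHBB, the beta B subunit of activins and inhibins, ranged from 3.67 to 4.97 in RM (median 4.33) and from 3.70 to 5.59 in IC (median 4.21), against 7.23, 5.50 and 5.34 in CM. Its difference of -1.75 was -1.15 without CM pig 30. Of the list of TGF-beta and BMP genes, 14 were measured with a median of -0.01, and none of the 13 that were not members was called. Of these 13, 2 passed at an unadjusted p under 0.05, against 1584 of all 12035 probe sets that were not members.

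IL1RAP, the co-receptor of the interleukin 1 receptor, ranged from 1.93 to 5.39 in RM (median 3.95) and from 3.24 to 5.49 in IC (median 4.03), against 5.50, 5.71 and 5.48 in CM. Its difference of -1.71 was largest at 1 week (-2.68) and smallest at 6 weeks (-0.88). HYAL2, a hyaluronidase anchored at the cell surface, ranged from 5.23 to 6.60 in RM (median 5.68) and from 5.58 to 6.50 in IC (median 5.93), against 7.76, 7.40 and 6.95 in CM, a difference of -1.60. APOD, a lipid-binding apolipoprotein, was lower by 1.42 and ranged from 3.98 to 5.47 in RM (median 4.81) and from 3.63 to 5.99 in IC (median 4.51), against 6.96, 6.01 and 5.53 in CM. PELI1, a ubiquitin ligase of toll-like and interleukin 1 receptor signalling, was lower by 0.95, with 5.94 to 6.77 in RM (median 6.15) and 6.81 to 7.56 in IC (median 7.17), against 7.31, 7.02 and 7.17 in CM. In PELI1 the IC arrays overlapped CM and lay above all RM arrays.

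**Figure D3:**
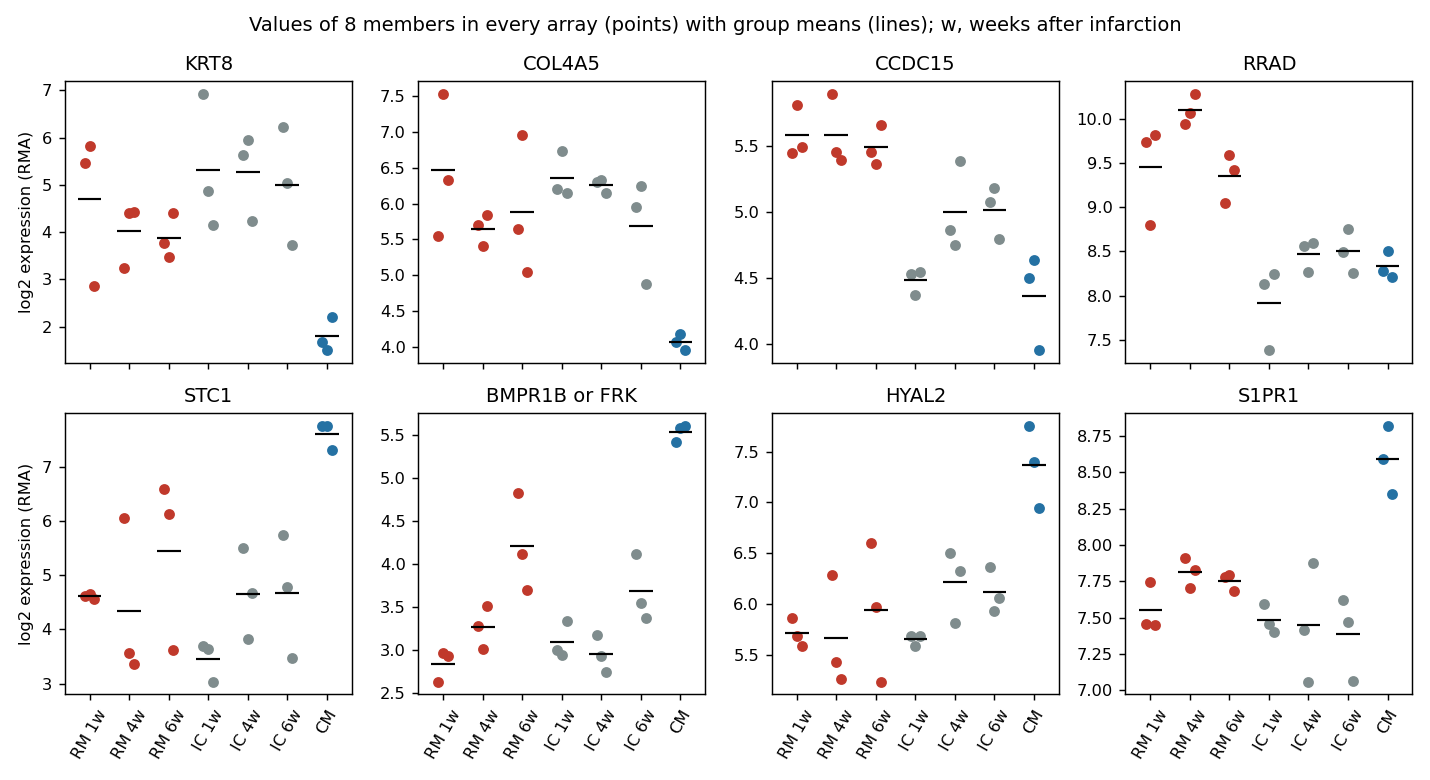
Log2 expression (vertical axis) of 8 members in every array (points, 3 pigs per group) with the group mean (line), for RM at 1, 4 and 6 weeks, IC at 1, 4 and 6 weeks and CM. The RM points of KRT8, COL4A5, CCDC15 and RRAD all lie above the CM points and those of STC1, BMPR1B or FRK, HYAL2 and S1PR1 all lie below them, as the rule requires, while the IC points lie near CM for RRAD (7.39 to 8.75) and on the RM side for STC1 (3.04 to 5.75).

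Genes of endothelial cells made up another group of lower members. PECAM1, an adhesion molecule of endothelial junctions, was lower on both probe sets. One ranged from 6.48 to 7.34 in RM (median 6.98) and from 7.16 to 8.59 in IC (median 7.56), against 7.85, 7.43 and 7.57 in CM, a difference of -0.61, and the other differed by -0.63. ESAM, a second junctional adhesion molecule of the endothelium, ranged from 4.02 to 4.52 in RM (median 4.38) and from 3.16 to 4.78 in IC (median 4.03), against 4.93, 5.10 and 4.84 in CM, a difference of -0.66.

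S1PR1, the sphingosine 1-phosphate receptor that steadies the endothelial barrier, ranged from 7.45 to 7.91 in RM (median 7.75) and from 7.06 to 7.87 in IC (median 7.45), against 8.59, 8.82 and 8.35 in CM, a difference of -0.88. The other 2 probe sets of S1PR1 differed by -0.80 and -0.75. NOTCH4, a Notch receptor of the endothelium, was lower by 0.78, with 4.60 to 5.32 in RM (median 5.01) and 4.19 to 5.09 in IC (median 4.49), against 5.74, 5.85 and 5.72 in CM.

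FZD4, a Wnt and norrin receptor of vessels, was lower by 0.74 on the member probe set and by 0.45 on another. TMEM100, a membrane protein of the endothelium, was lower in RM by 1.10, KIAA1462, which encodes a junctional protein, by 1.23, and EPAS1, the hypoxia-inducible factor 2 alpha, by 0.66. NPR1, the receptor of the atrial and brain natriuretic peptides, ranged from 3.03 to 4.57 in RM (median 4.26) and from 3.13 to 5.13 in IC (median 4.21), against 4.68, 5.03 and 4.83 in CM, a difference of -0.75. DOCK9, which activates the small GTPase CDC42, was lower on 2 probe sets, by 0.84 and 0.89.

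All 8 measured genes of the endothelial list had a negative difference. PECAM1 and ESAM were the members among these 8 genes, and the rule fixed their sign and size. The list median of -0.64 lay between these 2 members, at -0.61 and -0.66, so it follows from the rule and is not set against other probe sets. Of the other 6 genes none was called by limma, with -1.14 for CLDN5 (adjusted p = 0.18), -0.85 for ERG (adjusted p = 0.0534), -0.68 for CDH5 (adjusted p = 0.239) and -0.02 for VWF (adjusted p = 0.986). Of these 6, 3 passed at an unadjusted p under 0.05, against 1584 of all 12035 probe sets that were not members. The 5 of 6 endothelial markers that were measured averaged 5.42 to 6.58 in RM, 5.88 to 7.19 in IC and 6.36 to 6.89 in CM, so RM and CM overlapped in this average, and the part of endothelial content in these differences was not tested.

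Transcription factors and RNA-binding proteins were also found among the lower members. KLF15, a glucocorticoid-induced factor that controls amino acid and lipid use in the heart, ranged from 4.76 to 6.38 in RM (median 5.82) and from 3.10 to 5.73 in IC (median 4.38), against 6.60, 6.52 and 6.40 in CM, a difference of -0.81. MYC, a growth regulator, ranged from 3.83 to 4.96 in RM (median 4.35) and from 4.57 to 6.14 in IC (median 5.25), against 6.63, 5.20 and 5.08 in CM. Its difference of -1.24 was -0.74 without CM pig 30. The same held for CREB5, a cAMP response element binding protein, with -1.11 on all arrays and -0.69 without that pig.

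The list of glucocorticoid-induced genes, which holds STC1 and KLF15, had 14 measured genes with a median difference of -0.71, and 13 of them were negative. Both figures include the members STC1 and KLF15, whose sign and size the rule fixed, so they are partly a product of the rule. None of the 12 that were not members was called, with -2.01 for PDK4 (adjusted p = 0.338, limma), -1.14 for CEBPD (adjusted p = 0.206), -1.11 for FKBP5 (adjusted p = 0.118) and 0.36 for MAOA (adjusted p = 0.134). Of these 12, 8 passed at an unadjusted p under 0.05, against 1584 of all 12035 probe sets that were not members.

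MBNL1, a splicing regulator, was lower on the member probe set by 0.71 and on another (8.61 in RM, 9.10 in CM) by 0.49, again with no overlap of the arrays. PRPF39, a component of the spliceosome, was lower by 0.67. POT1, which caps telomeres, was lower by 0.96 and RAD1, a part of the DNA damage clamp, by 0.95. None of the 20 measured genes of the RNA binding list was called by limma. Of these 20, 1 passed at an unadjusted p under 0.05, against 1584 of all 12035 probe sets that were not members.

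Enzymes and transporters lay on both sides, with SLC39A11 and PTGIS higher as given above and others lower. DAO, the peroxisomal D-amino acid oxidase, ranged from 4.07 to 5.19 in RM (median 4.72) and from 4.85 to 5.94 in IC (median 5.37), against 7.16, 6.00 and 5.82 in CM. Its difference was -1.68, and it was -1.26 without CM pig 30. FMO1, a flavin-containing monooxygenase, ranged from 5.24 to 6.95 in RM (median 6.54) and from 4.75 to 7.40 in IC (median 6.02), against 7.65, 7.78 and 7.01 in CM, a difference of -1.11. ALDH4A1, a mitochondrial enzyme of proline breakdown, was lower by 0.92, AMT, a part of the glycine cleavage system, by 0.95, SLC2A12, a glucose transporter, by 0.87, and MT3, a metal-binding metallothionein, by 1.08. AMT and MT3 were lower still in IC, with 1.99 to 3.16 and 4.50 to 6.29, against 4.86, 4.75 and 5.32 in CM for AMT and 8.76, 8.42 and 8.64 in CM for MT3. The list of fatty acid and mitochondrial fuel genes had a median of 0.01 over 16 measured genes, 8 positive and 8 negative.

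Kinases and kinase regulators among the lower members included DDR2, a collagen receptor with tyrosine kinase activity, at -1.07, PAQR3, which holds RAF kinases at the Golgi, at -0.83, the lipid kinase PIK3C2A at -0.81 and -0.73 on 2 probe sets, and NRK at -0.63. NRK had the narrowest spread of these, with 7.53 to 7.92 in RM (median 7.66), against 8.15, 8.50 and 8.29 in CM, while IC ranged from 4.44 to 6.96 (median 5.65). SETD7, a lysine methyltransferase, was lower in RM by 0.78, ZSWIM6 by 0.77, FAM107B by 0.75 and ATXN7, a subunit of a histone acetyltransferase complex, by 0.61. SETD7 had IC values of 6.78 to 7.45 (median 7.04) that overlapped the 7.12, 7.19 and 7.02 of CM, with 5.70 to 6.81 in RM (median 6.35). GPM6B, a membrane glycoprotein of neural cells, ran the other way in IC, with 4.27 to 5.22 in RM (median 5.08) and 6.82 to 7.81 in IC (median 7.63), against 5.70, 5.39 and 5.73 in CM. In the list of RAS, RAF and MAP kinase genes, RRAD was the member under its platform symbol (PAQR3 belongs to the list by the authors' match), and of the 9 others MRAS, a RAS relative, rose by 0.91 (adjusted p = 0.0449, limma) and RASSF1, a RAS effector, fell by 0.68 (adjusted p = 0.0344). In the list of endothelin, angiotensin and adrenergic genes, PRKCH, a protein kinase C, fell by 1.29 (adjusted p = 0.031) and ENPEP, the aminopeptidase that trims angiotensin II, by 0.92 (adjusted p = 0.0435). These calls are among the 46 whose number moved with single arrays. The study reports RASSF1, PRKCH and ENPEP as altered in RM on the same arrays, so their calls here repeat that result and are not independent of it.

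A pair of lower members had names that the 2 annotations do not share. One, B2M on the platform and HBA2, an alpha globin, in the authors' match, ranged from 6.75 to 8.47 in RM (median 7.42) and from 5.43 to 7.45 in IC (median 6.76), against 9.09, 9.62 and 8.93 in CM, a difference of -1.60. The other 8 probe sets named B2M, the light chain of class I histocompatibility molecules, differed by -0.23 to 0.53. The other, OAZ1 on the platform and HBD, a globin, in the authors' match, ranged from 7.81 to 10.34 in RM (median 9.32) and from 7.40 to 9.67 in IC (median 8.63), against 10.44, 11.44 and 10.86 in CM, a difference of -1.57. The second probe set named OAZ1, an inhibitor of polyamine synthesis, differed by 0.05. Under platform symbols 1 of 4 red cell markers was measured, at 5.69 to 6.61 in RM, 5.46 to 6.00 in IC and 5.98 to 6.20 in CM. HBA2 is on the same marker list, so by the authors' match the probe set of B2M or HBA2, at -1.60, belongs to it too. By the methods of the study blood had been washed from the hearts with saline before sampling. The part of residual blood in these 2 members was not tested.

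Probe sets outside the rule measured the same genes again. For 27 of the named genes another probe set passed the filter without being a member, 51 in all, and 39 of these had the sign of the member and 12 the opposite sign, with a median size of 0.23 in the direction of the member. This comparison uses the same arrays as the rule and is a description. Only 3 of the 12 opposite ones reached 0.3, and these were 2 of the B2M probe sets and one of MTUS1, a microtubule-associated protein, at -0.38 where the member was at 0.84. That MTUS1 probe set (5.94 in RM, 6.31 in CM) also had no overlap of the arrays, with RM below CM. RPL9, a ribosomal protein, was lower by 1.01 on the member probe set (median 3.04 in RM) and differed by 0.03 on the other (11.49 in RM, 11.46 in CM).

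**Figure D4:**
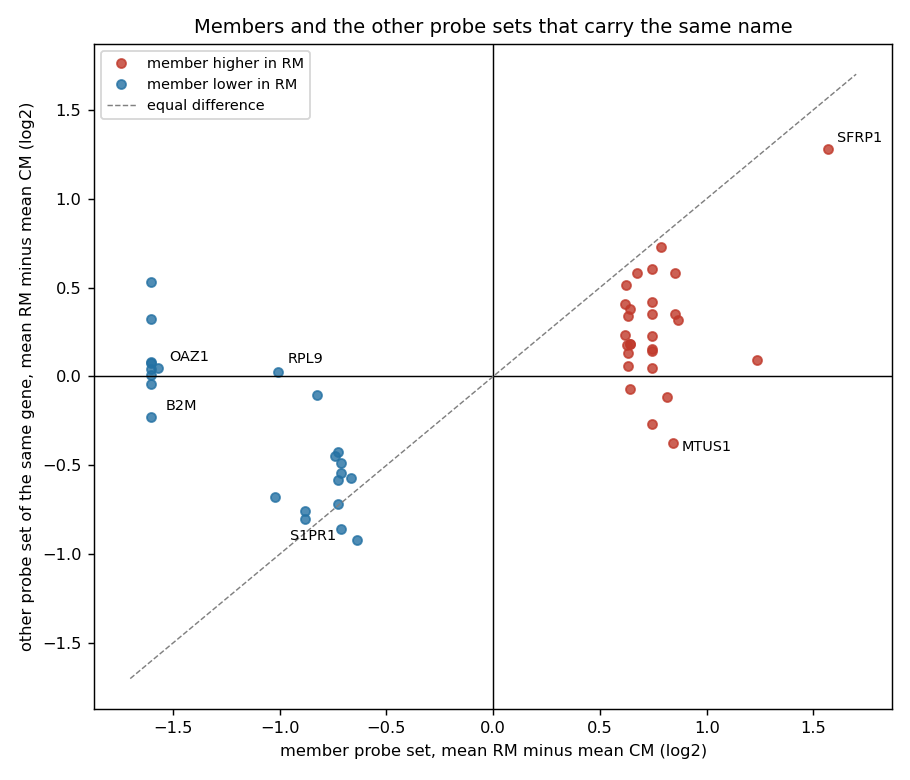
Mean RM minus mean CM (log2) of other probe sets (vertical axis) against that of the member with the same gene name (horizontal axis), 51 probe sets of 27 genes that are not members themselves. Points near the dashed line, such as S1PR1 (-0.80 and -0.75) and SFRP1 (1.28), repeat the size of the member, and points near 0, such as those of B2M, OAZ1 and RPL9, do not.

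Control probe sets of the array were examined on the same contrast. The 34 tested probe sets of the poly-A spikes added at labelling and the 27 of the hybridization spikes held no member and none without overlap, with median differences of 0.05 and 0.02. By stage, however, the poly-A spikes differed from CM by -0.28, 0.23 and 0.21 in RM and by -0.56, 0.85 and 0.84 in IC at 1, 4 and 6 weeks (medians). The hybridization spikes differed by -0.11, -0.13 and 0.26 in RM and by -0.47, 0.25 and 0.04 in IC. All 3 probe sets of the elongation factor EF1A were non-overlapping, and 2 of them were members, EF1ALPHA at 0.74 for the 5' end and EEF1A1 at 0.63 for the middle, while the 3' one differed by 0.35. The 9 GAPDH probe sets were all lower in RM (-0.28 to -0.07), and 1 of them was non-overlapping. None of the 4 rRNA probe sets (0.06 to 1.46) or the 7 of actin (-0.12 to 0.28) was non-overlapping. The difference of the 3' and 5' probe sets of GAPDH, which widens as RNA degrades, was -0.07 to 0.51 in RM, 0.64 to 1.39 in IC and 0.03 to 0.21 in CM. The same difference for actin was 2.82 to 4.80 in RM, 2.83 to 5.26 in IC and 3.59 to 3.76 in CM, and for EF1A, whose probe sets include members, it was 1.04 to 2.15 in RM, 0.69 to 2.45 in IC and 2.10 to 2.35 in CM. These differences between 3' and 5' probe sets thus did not move one way in RM, and the part of labelling and RNA quality in the members and in the stage comparisons was not tested.

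The rule holds all 3 RM stages on the same side of CM. The median difference from CM over the 62 higher members was 0.86, 0.94 and 0.67 for the stages of 1, 4 and 6 weeks, and over the 83 lower ones it was -0.90, -0.82 and -0.80. The smallest of the 3 stage differences fell at 6 weeks in 37 of the 62 higher and 32 of the 83 lower members. The limma comparison of stages within RM uses the 9 arrays that chose the members, each of which had to clear CM, so it is not independent of the rule and is given as a description. Between 4 weeks and 1 week no member was called, against 1.59% of all probe sets (0.928% up and 0.665% down), and 30 members passed at an unadjusted p under 0.05 (20.7%, against 18.7% of all). With array weights 21 members were called, with the pig as a block none. The share of all probe sets called with array weights was not counted, so the 21 cannot be set against the 1.59%.

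Between 6 weeks and 1 week of RM 2 members were called, against 0.181% of all (0.0575% up and 0.123% down). CBFB, the partner subunit of RUNX transcription factors, had 2.04, 2.19 and 1.97 at 6 weeks, against 3.09, 3.34 and 3.05 at 1 week, a difference of -1.10 ± 0.19 (SE). The probe set of BMPR1B or FRK had 4.82, 4.12 and 3.69 at 6 weeks, against 2.63, 2.93 and 2.96 at 1 week, a difference of 1.37 ± 0.24 (SE). Neither gene overlapped between these stages, but the values of CBFB at 6 weeks and of BMPR1B or FRK at 1 week lie below the filter level of 3, where differences are poorly measured. Both calls were lost when any 1 of the RM arrays of pigs 7, 8 and 9 at 1 week or of pigs 2 and 3 at 6 weeks was left out.

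Between 6 and 4 weeks of RM 3 members were called, against 0.632% of all (0.115% up and 0.517% down). CBFB had 2.04, 2.19 and 1.97 at 6 weeks, against 3.31, 3.42 and 3.04 at 4 weeks (difference -1.19 ± 0.19, SE), again with low values at 6 weeks, and this call remained when each of the 21 arrays was left out in turn. The 5' probe set of EF1ALPHA had 8.83, 8.86 and 9.04 at 6 weeks, against 10.20, 10.23 and 9.63 at 4 weeks (difference -1.11). ALDH4A1 had 6.15, 6.33 and 5.96 at 6 weeks, against 5.24, 5.09 and 4.96 at 4 weeks (difference 1.05). The call of EF1ALPHA was lost without RM pig 20, 22, 2, 3 or 5 and that of ALDH4A1 without RM pig 18, 20, 22, 2 or 3.

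The IC arrays, which entered the choice of members only through the low-value filter, were compared between stages in the same fit. Some members, such as KRT8, ACTG2 and CBFB, passed that filter only with IC arrays. For CBFB these were IC arrays at 1 and 4 weeks. The IC comparisons of CBFB at 6 weeks with these stages are thus not independent of the filter and are a description. Between 4 weeks and 1 week 19 of the 145 members (13.1%) were called, 12 up and 7 down, against 11.9% of all probe sets (5.57% up and 6.35% down), so that the share of members was near the background. MTUS1 on its member probe set had 4.76, 4.90 and 5.30 at 4 weeks, against 3.18, 2.95 and 3.05 at 1 week (difference 1.93 ± 0.22, SE, limma adjusted p = 0.00012). Its other probe set, as given above, went the other way in RM against CM. The endothelial receptor FZD4 had 5.88, 5.87 and 5.42 at 4 weeks, against 4.59, 4.44 and 4.34 at 1 week (difference 1.27 ± 0.20, SE, limma adjusted p = 0.00118). Neither gene overlapped between the 2 stages.

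Further members that were lower in RM than in CM rose in IC over the same interval, among them FMO1 by 1.59, TMEM100 by 1.58, NPR1 by 1.15 and KIAA1462 by 1.01 (limma adjusted p = 0.00741, 0.021, 0.0111 and 0.0102). Of the members higher in RM, COL21A1 rose by 1.40 and PTGIS by 0.98, while TUBB fell by 0.85 (limma adjusted p = 0.0124, 0.0247 and 0.00905). The collagen receptor DDR2 fell by 0.65 (limma adjusted p = 0.0349). Of the 19 calls 6 remained when each array was left out in turn, those of MTUS1, FZD4, EF1ALPHA, FMO1, TUBB and KIAA1462. The count was 7 without IC pig 9, 8 without IC pig 7, 11 without IC pig 8, 10 without IC pig 18 and 12 without IC pig 20.

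Between 6 weeks and 1 week of IC 33 members (22.8%) were called, 16 up and 17 down, against 15.7% of all probe sets (6.64% up and 9.10% down). CASP1, IFI30 and GM2A, which were higher in RM than in CM, fell in IC. CASP1 had 4.68, 5.48 and 5.06 at 6 weeks, against 6.91, 6.56 and 6.52 at 1 week (difference -1.59 ± 0.29, SE, limma adjusted p = 0.00249), with no overlap. IFI30 fell by 1.52 and GM2A by 1.10 (limma adjusted p = 0.00424 and 0.00387). The interferon-induced ISG12(A) differed by -0.33 and did not pass (limma adjusted p = 0.54). SMPDL3A, a phosphodiesterase of macrophages, had 2.98, 3.59 and 3.45 at 6 weeks, against 6.05, 5.40 and 4.79 at 1 week (difference -2.07 ± 0.40, SE, limma adjusted p = 0.00309), although it was lower in RM than in CM.

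KLF15 had 5.36, 4.64 and 5.73 in IC at 6 weeks, against 3.69, 3.62 and 3.10 at 1 week (difference 1.77 ± 0.36, SE, limma adjusted p = 0.00426). FMO1 rose by 1.58, COL21A1 by 1.51, MTUS1 by 1.13 and NPR1 by 1.08 (limma adjusted p = 0.00583, 0.00618, 0.00339 and 0.0125). CBFB fell by 1.42, MBNL1 by 1.19 and TPPP3 by 1.13 (limma adjusted p = 0.000534, 0.000733 and 0.00305). The call of CBFB is not independent of the low-value filter, as stated above. Of the 33 calls 13 remained when each array was left out in turn, among them those of CBFB, MBNL1, CASP1, IFI30, GM2A, SMPDL3A, KLF15, FMO1, COL21A1, MTUS1, TPPP3 and TUBB4B. The count was 18 without IC pig 9 and 20 without IC pig 7.

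**Figure D5:**
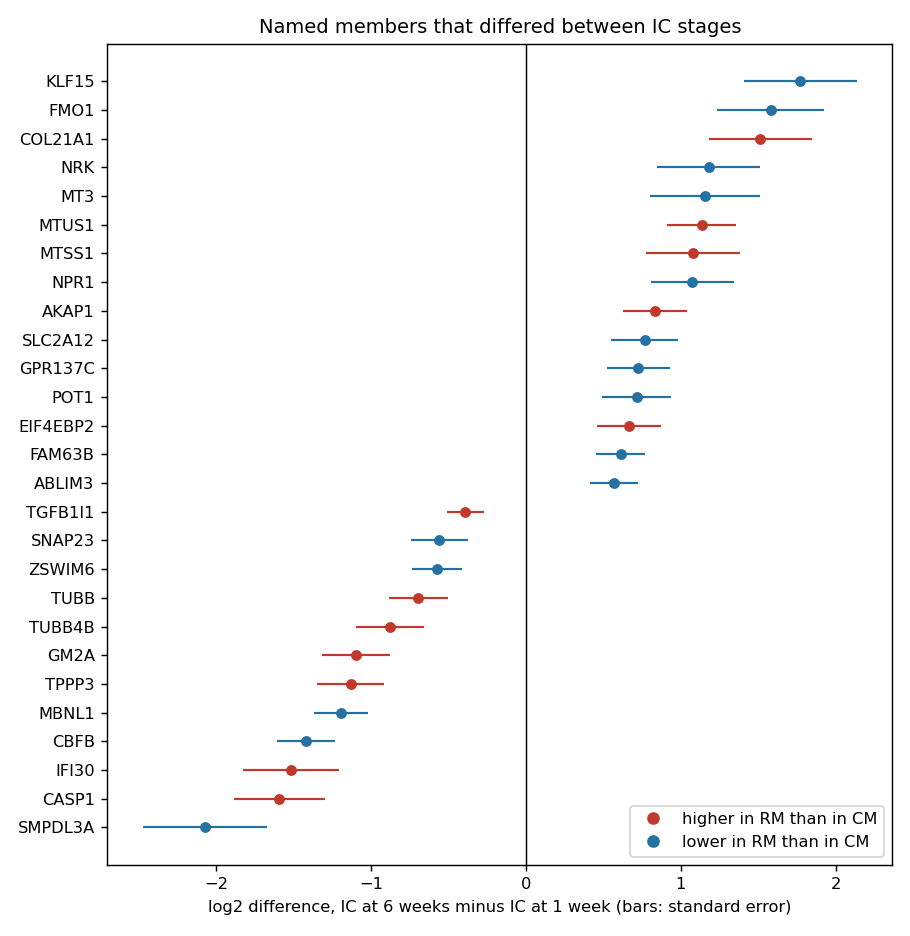
Log2 difference of IC at 6 weeks minus IC at 1 week (horizontal axis, points) with its standard error (bars) for named members called by limma, coloured by their direction in RM against CM. Members of both colours lie on both sides of 0, from -2.07 for SMPDL3A to 1.77 for KLF15.

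Between 6 and 4 weeks of IC 10 members (6.9%) were called, 4 up and 6 down, against 3.88% of all probe sets (2.09% up and 1.80% down). CBFB had 2.27, 2.12 and 1.93 at 6 weeks, against 3.56, 3.83 and 3.86 at 4 weeks (difference -1.64 ± 0.19, SE, limma adjusted p = 0.000115), so that it was low at 6 weeks in both regions. Its values at 6 weeks lie below the filter level of 3, where the size of a difference is poorly measured. CBFB passed the filter only with IC arrays of the earlier stages, so this call is not independent of the filter and is a description. GPR137C, a transmembrane protein, rose by 1.18 and ABLIM3, an actin-binding LIM protein, by 0.86, and the 5' probe set of EF1ALPHA fell by 1.29 (limma adjusted p = 0.00328, 0.00574 and 0.00359). These 4 calls remained when each array was left out in turn. The fall of CASP1 by 1.39 (limma adjusted p = 0.0131) was lost without IC pig 22, 3 or 2. TPPP3 fell by 0.83 with an adjusted p of 0.0407 in limma, and of 0.0519 with the pig as a replicate block. The count was 6 without IC pig 3 or IC pig 2 and 17 without IC pig 5.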

How the data were processed

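RNA of 21 tissue samples was measured on Affymetrix porcine arrays. The deposited values are log2 expression levels that the authors made by RMA, which corrects background, normalizes the quantiles of all arrays and summarizes probes, and they were used as they are. Quantile normalization sets the arrays to 1 common distribution, so a change of the whole RNA pool cannot be seen. Array medians were 2.95 to 3.12. The number of arrays, 3 per group, limits the precision. Replicates are separate pigs.

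The members, gene lists and tests were chosen with earlier results of these data known. The low-value filter of the study (a level over 3 on 10 or more arrays) was kept. Limma 3.58.1 under R 4.3.3 was fitted with 7 group means over 21 arrays (14 residual and 3.98 prior degrees of freedom), with Benjamini-Hochberg adjustment over 12180 probe sets and a threshold of 0.05. The fit and the rule were tested on simulated data. Tables and plots used Python 3.11.15, pandas 2.3.3 and matplotlib 3.10.9.

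RM and IC arrays with the same pig number come from the same animal. Their within-group residuals correlated at r = 0.0714 to 0.491, and the consensus correlation was 0.207. For the lists, the probe set with the highest mean stood for a gene, under the platform's symbol. T cell and skeletal muscle markers had 0 measured genes.

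Genes named are the members with a symbol that had the 12 most positive and 12 most negative differences, up to 10 per stage comparison by adjusted p, members of the lists, members the paper names, those at the size threshold and control probe sets. Others were chosen with their values in view: S1PR1, SLA-3, NOTCH4, GPM6B, AMT, MT3, SLC2A12, NRK, POT1, RAD1, PRPF39, DACT1, DACT3, AKAP1, ISG12(A), TUBB4B, DSTN, SORBS2, EPB41L3, PDLIM5 and the list genes that are no members. The authors' supplementary tables gave symbols only, and their fold changes and p-values were not used. The alternatives tried were other filters, size thresholds, scalings, sets of arrays, variance settings, array weights, the pig as a block and leaving out each array. Not every member that meets this rule is reported here. A planned search of promoters for motifs was not run.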

Additional observations from a re-analysis of the deposited data

Results flagged for a closer look

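Members whose RM level differed between stages by the limma test of that difference were CBFB, at -1.10 for 6 weeks against 1 week and -1.19 for 6 against 4 weeks, BMPR1B or FRK at 1.37 for 6 weeks against 1 week, the 5' probe set of EF1ALPHA at -1.11 for 6 against 4 weeks and ALDH4A1 at 1.05 for 6 against 4 weeks. All are log2 differences of the later from the earlier stage, on arrays that also chose the members.

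In IC the same test called 19 members for 4 weeks against 1 week, 33 for 6 weeks against 1 week and 10 for 6 against 4 weeks, where 11.9%, 15.7% and 3.88% of all probe sets were called.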

How the results depend on the processing

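The rule gave 208 probe sets at a size threshold of 0.5 (94 higher, 114 lower), 75 at 0.8 (29 higher, 46 lower) and 40 at 1 (15 higher, 25 lower). Scaling moved the split of 62 higher and 83 lower, to 47 and 96 with arrays centred on their median and to 35 and 129 with centring on ribosomal protein genes, of which 33 and 82 were members before, and cyclic loess gave 69 and 77. The median difference of all probe sets was 0.00, -0.02, -0.07 and 0.01 as deposited and under these 3. Leaving out 1 array gave 149 to 295 probe sets, 61 to 139 higher and 83 to 156 lower.

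Counts of members called between stages are given in the order IC 4 weeks against 1 week, 6 weeks against 1 week and 6 against 4 weeks, then RM likewise. They were 8, 16, 2, 1, 1 and 2 in fits of 1 region, 40, 47, 7, 21, 4 and 9 with array weights, and 5, 12, 4, 0, 0 and 1 at an adjusted p under 0.01. Leaving out 1 array gave 7 to 20, 18 to 34, 6 to 17, 0 to 3, 0 to 3 and 1 to 4, where a group of 2 arrays is assumed to vary like the others. Centring on ribosomal protein genes gave 11 for IC at 4 weeks against 1 week, 1 for RM at 4 weeks against 1 week and 0 for RM at 6 weeks against 1 week, and the last was 1 with a filter above 5 in at least 3 arrays. The pig as a replicate block gave 34 for IC at 6 weeks against 1 week, lost the call of TPPP3 named above and ended no call in RM. The share of all probe sets called was counted in the main fit only. Counts under the other settings therefore do not show whether members were called more often than other probe sets.

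Calls outside the members for RM against CM, 46 as reported, were 11 with the 12 RM and CM arrays alone, 516 with array weights, 52 with the pig as a replicate block and 2 to 51 leaving out 1 array. The cause of these moves was not tested. A level under about 3 is close to the floor of these arrays, which limits KRT8, ACTG2 and the other members with a CM mean under 3, the 4 lower members with an RM mean under 3 (CBFB and RPL9 among them) and the stage differences of CBFB and of BMPR1B or FRK.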
